A study of Homo sapiens with 3 samples.

Results

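The knockdown of B7-H3 was described in Rh-30 cells from the array hybridized with RNA of siB7-H3 transfected cells and the array of siControl transfected cells, 2 of the 3 arrays of the series. Rh-30 is an established alveolar rhabdomyosarcoma (ARMS) cell line, positive for the PAX3-FOXO1 fusion, and all 3 arrays hold this one line. The cells received an siRNA against B7-H3, a control siRNA or an siRNA against the PAX3-FOXO1 junction at 5 nM, and RNA was taken after 24 h. Each knockdown rests on 1 siRNA and 1 array, so no difference below has a replicate error, a test or a p-value, and each one lies between arrays.

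The unit of measurement was the intensity of a probe set, a group of short probes that bind 1 transcript, on a linear scale. A probe set was kept where the higher of its siControl and siB7-H3 intensities reached 200. Of 19775 genes named by a probe set of their own, 9656 had at least 1 kept probe set. Among these, 2560 genes had 2 or more kept probe sets that all lay on the same side of siControl, 4925 genes had exactly 1, and 2171 genes had kept probe sets on both sides and are counted but not described as higher or lower. The 7485 genes of the first 2 kinds are the ones described here. The probe sets nearest the limit had an intensity of 200.015 inside and 199.962 outside. A gene was counted as 2-fold higher or lower only where every kept probe set had a log2 ratio of siB7-H3 over siControl of at least 1.0 in size, and likewise for 1.5-fold.

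B7-H3, encoded by CD276, is a transmembrane glycoprotein of the B7 family of immune checkpoint ligands and is abundant on many solid tumours, rhabdomyosarcoma among them. Its effect on T cells is debated, and in tumour cells it has also been linked to migration, invasion and metabolism. An siRNA is loaded into an Argonaute protein and leads to the cleavage of transcripts it pairs with, and it can also lower transcripts that pair only with its seed.

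CD276, the target of the siRNA, had the lowest median log2 ratio of the comparison. Its brighter probe set read 1486 in siControl, 1381 in siPAX3-FOXO1 and 362 in siB7-H3. Its second kept probe set read 459.7, 349 and 11.4 in the same order. Both were low only on the siB7-H3 array among the 3, with differences of 4.10-fold and 40.5-fold from siControl and log2 ratios of -2.04 and -5.34. The value of 11.4 lies in the dim range, where ratios are poorly determined, so the smaller ratio is the firmer one. With values under 200 raised to 200, a setting called raised values below, the median log2 ratio of CD276 was -1.62, short of those of TOMM22 (-2.34) and PIGU (-1.94). A further CD276 probe set stayed under the limit and read 54.4, 77.6 and 83.6. The array that carries the siB7-H3 label therefore had the lowest CD276 intensities at both probe sets that were bright enough to be read.

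**Figure D1:**
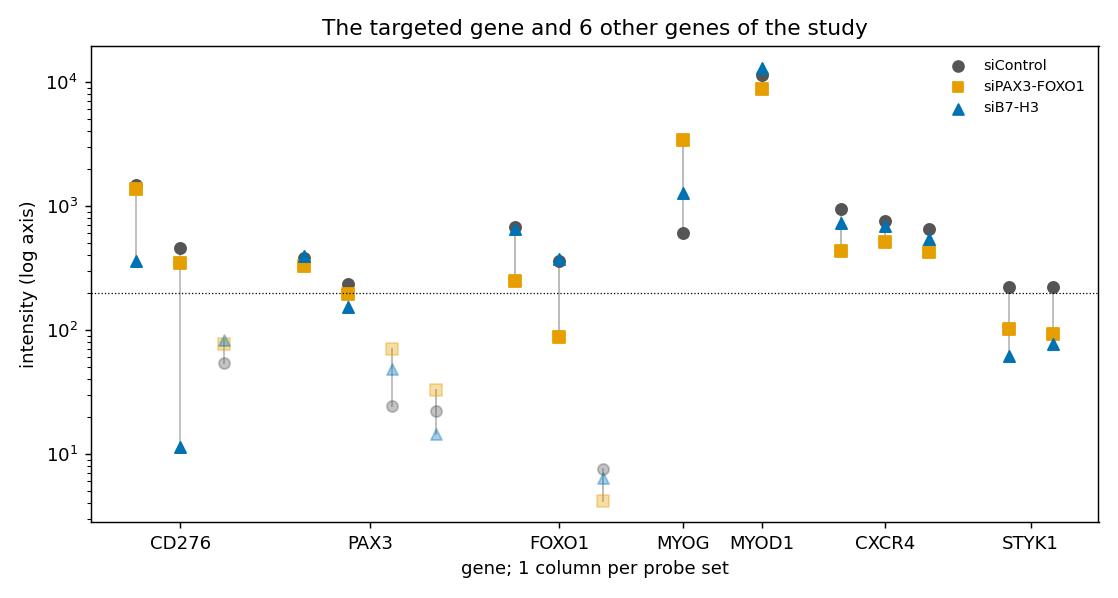
Intensity (log axis) of each probe set of CD276, PAX3, FOXO1, MYOG, MYOD1, CXCR4 and STYK1 on the siControl (circle), siPAX3-FOXO1 (square) and siB7-H3 (triangle) arrays, with probe sets under the limit of 200 (dotted line) drawn pale. Both kept CD276 probe sets are lowest with siB7-H3, at 362 and 11.4, and the MYOG probe set with siB7-H3, at 1269, lies between siControl and siPAX3-FOXO1.

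The 3 arrays were alike in overall level, with median intensities of 70.6 to 71.7 and a trimmed mean of 500.1 each. Ratios of the 3' to the 5' control probe sets lay between 0.907 and 1.02 for GAPDH and ACTB on all arrays. The spread of the log2 ratio over probe sets was wide where signal was low, with an SD of 1.37 under 200, and fell to 0.403 between 200 and 500 and 0.223 at 8000 and above. Kept probe sets of the same gene had ratios that spanned a median of 0.281. Muscle markers were bright, with MYOD1 at 11471, DES at 2776 and ACTC1 at 26987 in siControl, and 11 of 13 measured muscle markers reached the limit. The summed muscle markers read 59014 in siControl and 70098 in siB7-H3, and their part in the results was not tested. ACTC1 was the largest item of this sum, at 26987 in siControl and 32753 in siB7-H3. None of 6 epithelial and none of 4 measured haematopoietic markers reached the limit. Of the endothelial markers, PECAM1 reached it while CDH5 and VWF read at most 22.3, and 3 of 7 fibroblast markers did, with sums of 6843 in siControl and 6679 in siB7-H3.

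Among the 4731 genes with 2 or more kept probe sets, 11 were at least 2-fold lower with siB7-H3 (0.233%) and 5 were at least 2-fold higher (0.106%). At 1.5-fold, 35 were lower (0.74%) and 49 higher (1.04%). In the same way 10 genes were 2-fold lower and 11 higher with siPAX3-FOXO1 against siControl, so the siB7-H3 array did not stand farther from siControl by this count. At 1.5-fold the siPAX3-FOXO1 array stood farther from siControl, with 63 genes lower and 66 higher. The last gene inside the 2-fold count was PRXL2A at -1.03 on the lower side, with PDE7A just outside at -0.99. On the higher side POLR3E was inside at 1.01 and ZDHHC20 outside at 0.97, each at its probe set closest to 0.

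**Figure D2:**
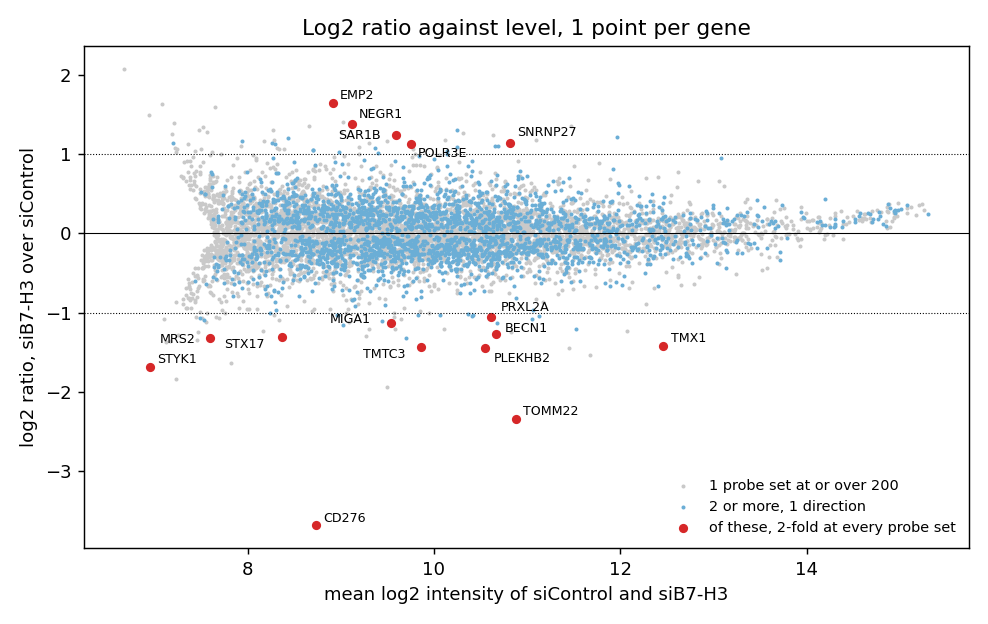
Log2 ratio of siB7-H3 over siControl against the mean log2 intensity of both arrays, 1 point per gene, for genes with 1 kept probe set (grey), genes with 2 or more on the same side (blue) and, of these, genes at least 2-fold apart at every kept probe set (red, named). The 11 lower genes spread from STYK1 near the limit to TMX1 at 9255 in siControl, and dotted lines mark a log2 ratio of 1.0 and -1.0.

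Apart from CD276, the largest difference among the 11 lower genes was in TOMM22. TOMM22 is a central receptor of the translocase of the outer mitochondrial membrane, through which most mitochondrial proteins enter. Its kept probe sets read 3672 and 4493 in siControl, 3892 and 4814 in siPAX3-FOXO1, and 529 and 1209 in siB7-H3. Only the siB7-H3 values were low among the 3 arrays, by 6.95-fold and 3.72-fold against siControl, with log2 ratios of -2.80 and -1.89. Both are of a kind that the array design marks as able to match more than 1 transcript, and a further, dim TOMM22 probe set read 195, 142 and 89.1.

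TMX1, a thioredoxin-related membrane protein of the endoplasmic reticulum, was the brightest of the 11. Its probe sets read 7927 and 10584 in siControl, 8208 and 9333 in siPAX3-FOXO1, and 3083 and 3815 in siB7-H3, giving log2 ratios of -1.36 and -1.47. PLEKHB2, a pleckstrin homology domain protein of recycling endosomes, read 3346 and 1557 in siControl, 2917 and 1448 in siPAX3-FOXO1, and 1260.0 and 559 in siB7-H3. For both genes the siControl and siPAX3-FOXO1 arrays lay close together and the siB7-H3 array well under them. MRS2, a magnesium channel of the inner mitochondrial membrane, was near the limit, with 349 and 266 in siControl, 281 and 234 in siPAX3-FOXO1, and 136 and 110 in siB7-H3 (log2 ratios -1.36 and -1.28). Its 2 other probe sets, at most 51.0 on any array, lay the other way, and raised values gave -0.61, which ends its 2-fold call.

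BECN1 and STX17, which act early and late in autophagy, were both among the 11. BECN1 encodes beclin 1, a subunit of the lipid kinase complex that starts autophagosome formation, and it read 2273 and 2763 in siControl, 2048 and 2555 in siPAX3-FOXO1, and 992 and 1096 in siB7-H3. The siB7-H3 values were lower than both other arrays by log2 ratios between -1.05 and -1.33. Like those of TOMM22, both kept BECN1 probe sets may match more than 1 transcript, and a dim one read 30.4 in siControl and 30.8 in siB7-H3. STX17, the syntaxin that fuses autophagosomes with lysosomes, had 4 kept probe sets with log2 ratios from -1.60 to -1.07. They read 417 to 849 in siControl, 293 to 533 in siPAX3-FOXO1 and 158 to 281 in siB7-H3, and at each of the 4 siB7-H3 was the lowest array and siPAX3-FOXO1 lay between. A list of autophagy machinery, written after these values were seen, had 45 genes with a kept probe set. Of these, 14 lay below siControl, 19 above and 12 on both sides, with a median of 0.06. Beside BECN1 and STX17, ATG10 was 2-fold lower, at 276 in siControl, 125 in siPAX3-FOXO1 and 127 in siB7-H3, or -0.47 with raised values. PIK3C3, the kinase that beclin 1 binds, was named after its values were seen. It read 617 in siControl and 486 in siB7-H3, a log2 ratio of -0.35. GABARAP, TMEM41B, ATG3 and RAB7A, among the brightest members of the list, had log2 ratios of 0.06, 0.14, -0.10 and 0.12.

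STYK1, MIGA1, TMTC3 and PRXL2A made up the rest of the 11. STYK1, a receptor-like kinase, read 221 and 223 in siControl, 92.2 and 102 in siPAX3-FOXO1, and 76.8 and 61.9 in siB7-H3. Here both knockdown arrays were low, all 4 values were under 200, and raised values left a log2 ratio of -0.15. MIGA1, a mitochondrial outer membrane protein that promotes fusion, read 1549 and 638 in siControl, 807 and 435 in siPAX3-FOXO1, and 738 and 281 in siB7-H3. TMTC3, an O-mannosyltransferase of the endoplasmic reticulum, had medians over its 3 kept probe sets of 1397, 999 and 619.7 in that order. PRXL2A, a thioredoxin-like redox protein, had medians of 2243, 2087 and 1101. The siPAX3-FOXO1 array thus lay below siControl in STYK1, MIGA1 and TMTC3 and near it in PRXL2A.

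Ranked by the probe set closest to 0, the next genes on the lower side were PDE7A, a cyclic AMP phosphodiesterase, BNIP2, a BCL2-interacting protein, FBXO21, a subunit of an SCF ubiquitin ligase, and SLC35A3, the UDP-N-acetylglucosamine transporter of the Golgi. Their median log2 ratios ran from -1.136 in FBXO21 to -1.004 in PDE7A. FBXO21 read 2374 in siControl, 2411 in siPAX3-FOXO1 and 1122 in siB7-H3 at the median of its probe sets. Over the 15 lowest genes, ranked by the ratio to siControl at the probe set closest to 0, the log2 ratio of siB7-H3 over siControl ran from -3.69 to -1.004 with a median of -1.31. That of siPAX3-FOXO1 over siControl ran from -1.20 to 0.09 with a median of -0.18, and 2 of the 15, STYK1 and MIGA1, were at least 1.5-fold lower by it. Against the siPAX3-FOXO1 array in place of siControl, 13 of the 15 were at least 1.5-fold lower with siB7-H3, with a median of -1.04. With that reference 6 of the 11 genes remained 2-fold lower at every kept probe set, and MIGA1, PRXL2A, STX17, STYK1 and TMTC3 did not. The same siB7-H3 array enters the ratios to both references, and the genes were picked for low values on it, so these ratios are not independent readings. A low value of the single siB7-H3 culture, an effect of lower B7-H3 and an effect of the siRNA on other transcripts cannot be told apart with 1 siRNA and 1 array each.

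**Figure D3:**
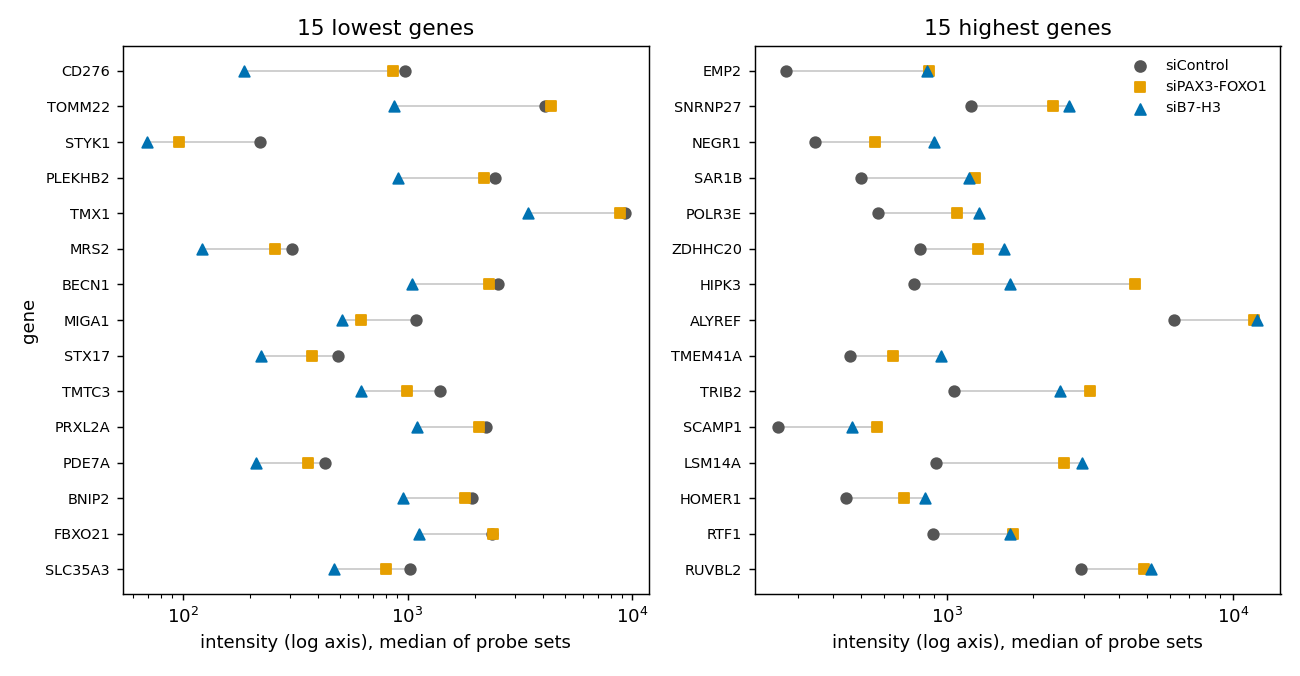
Median intensity over the kept probe sets (log axis) on the siControl (circle), siPAX3-FOXO1 (square) and siB7-H3 (triangle) arrays for the 15 lowest and 15 highest genes with 2 or more kept probe sets on the same side. In the left panel siB7-H3 is lowest for every gene and siPAX3-FOXO1 often lies near siControl, and in the right panel siControl is lowest for every gene.

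On the higher side EMP2 led. EMP2, a tetraspan membrane protein that regulates integrin and caveolin trafficking, read 587, 273 and 142 in siControl, 1491, 866 and 659 in siPAX3-FOXO1, and 1337, 853 and 655 in siB7-H3. The values of both knockdown arrays were nearly equal and those of siControl were low, with log2 ratios of siB7-H3 over siControl of 1.19, 1.65 and 2.20. SNRNP27, a protein of the spliceosomal tri-snRNP, read 1160.4 and 1266 in siControl, 2330.4 and 2376 in siPAX3-FOXO1, and 2537 and 2811 in siB7-H3. SAR1B, the GTPase that assembles COPII vesicles, had 4 kept probe sets with log2 ratios from 1.07 to 1.42, and medians of 501 in siControl, 1247 in siPAX3-FOXO1 and 1194 in siB7-H3. POLR3E, a subunit of RNA polymerase III, had medians of 572, 1083 and 1295.

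NEGR1 stood apart from these 4 genes. NEGR1 is a cell adhesion molecule held in the membrane by a GPI anchor, and it read 198, 636 and 344 in siControl, 329.5, 752 and 559.9 in siPAX3-FOXO1, and 532, 1357 and 897 in siB7-H3. The siB7-H3 values were the highest of the 3 arrays at each of the 3 kept probe sets, by a median log2 ratio of 1.38 over siControl and 0.69 over siPAX3-FOXO1. A further, dim NEGR1 probe set read 85.3 in siControl and 77.9 in siB7-H3.

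Among the other genes of the 15 highest by the same ranking, ALYREF, an mRNA export adaptor, was the brightest, at 6225 in siControl, 11805 in siPAX3-FOXO1 and 12081 in siB7-H3 as medians of its probe sets. LSM14A, a P-body protein, had 914 in siControl, 2559 in siPAX3-FOXO1 and 2961 in siB7-H3 by the same measure. RTF1, a subunit of the PAF1 transcription elongation complex, and RUVBL2, an ATPase of chromatin remodellers, had median log2 ratios of 1.09 and 0.81. HIPK3, a nuclear kinase whose dimmer kept probe set read 107, 325 and 207, had medians of 767, 4540.0 and 1655, so that siB7-H3 lay well below siPAX3-FOXO1. TRIB2, a pseudokinase, had 1053, 3156 and 2471 in the same order. The log2 ratios of ZDHHC20, a palmitoyltransferase, TMEM41A, SCAMP1, a secretory carrier membrane protein, and HOMER1, a postsynaptic scaffold, were 1.002, 1.07, 1.203 and 0.92 at the median.

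The highest genes thus differed from the lowest ones in where the siPAX3-FOXO1 array lay. Over the 15 highest genes the log2 ratio of siB7-H3 over siControl ran from 0.81 to 1.65 with a median of 1.10, and that of siPAX3-FOXO1 over siControl from 0.51 to 2.11 with a median of 0.96. Both ratios are taken over the same siControl array, so a low siControl value enters both. Against siPAX3-FOXO1 the median of siB7-H3 was 0.09, with NEGR1 at least 1.5-fold higher and HIPK3 at least 1.5-fold lower, and none of the 5 genes past 2-fold remained so with that reference. Whether a gene was high in both knockdowns or low in the single siControl culture cannot be told apart with 1 array each.

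Genes with a single kept probe set have no second reading to set the first against, and more of them passed the folds. Of 4925 such genes, 38 were at least 2-fold higher (0.772%) and 33 at least 2-fold lower (0.67%), and 213 (4.32%) and 186 (3.78%) passed 1.5-fold. With raised values, those past 2-fold numbered 21 higher and 18 lower.

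The lowest of these by raised values was PIGU, a subunit of the transamidase that attaches GPI anchors to proteins, at 1412 in siControl, 1772 in siPAX3-FOXO1 and 367 in siB7-H3. Its log2 ratio was -1.94 over siControl and -2.27 over siPAX3-FOXO1. ZMPSTE24, the metalloprotease that matures prelamin A, read 5588, 5425 and 1926, and MAT2B, the regulatory subunit of methionine adenosyltransferase II, read 4616, 5145 and 1693. VMA21, an assembly factor of the vacuolar proton pump, read 6602, 6487 and 2805. In all 4 genes siControl and siPAX3-FOXO1 differed by at most 0.33 on the log2 scale, and siB7-H3 was low. CERK, ceramide kinase, TXNDC16, a thioredoxin-domain protein of the endoplasmic reticulum, and LEF1, a transcription factor of the Wnt pathway, had log2 ratios of -1.25, -1.21 (TXNDC16) and -1.21 (LEF1). CHIC1 was the exception, as it read 966 in siControl, 492 in siPAX3-FOXO1 and 393 in siB7-H3. Dim second probe sets of MAT2B (-1.59), LEF1 (-0.73 and -1.52), VMA21 (-0.22 and -1.93) and CHIC1 (-0.20 and -0.84) also lay below siControl.

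The highest single-probe-set genes had mostly high values on both knockdown arrays. AGO4, an Argonaute protein, read 369 in siControl, 1037 in siPAX3-FOXO1 and 1088 in siB7-H3, and YWHAH, the eta isoform of 14-3-3, read 1780.1, 4058 and 4554. The dim YWHAH probe sets went the other way, from 55.5 in siControl to 1.33 in siB7-H3 and from 97.6 to 76.7. CYB5R4, a cytochrome b5 reductase, read 320.3, 755 and 845. THG1L, a tRNA-histidine guanylyltransferase, and PXYLP1 had log2 ratios of 1.28 and 1.26 over siControl and of 0.13 and 0.19 over siPAX3-FOXO1. CKB, brain-type creatine kinase, read 198, 1244 and 487, so siB7-H3 lay between the other arrays. STMN3, a stathmin-family protein that destabilizes microtubules, was high with siB7-H3 alone among the 3 arrays, at 1033, 778 and 2446, and its dim second probe set read 67.6, 62.9 and 164. SLC34A3, a sodium-phosphate cotransporter, read 253, 396 and 646, with a dim second probe set at 5.57 in siControl and 2.35 in siB7-H3.

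Lists of genes with a shared function were read against all 9656 genes, of which 40.1% lay above siControl at every kept probe set and 37.4% below, with a median log2 ratio of 0.02. At 1.5-fold, 2.71% of all genes were higher and 2.29% lower, and at 2-fold 0.445% and 0.456%. Medians of the lists lay within a narrow range, and the lists are described by these counts with no test. These medians leave out the genes on both sides of siControl, unless stated. Of the 88 genes named here as past 1.5-fold, 14 were short of it with raised values, namely STYK1, HIPK3 (0.58) and the single-probe-set list members ATG10, CCL2, CYP3A4, ELN, ICOSLG, INSR, P4HA2, PGAP2, PIGQ, SPN, TGFB1 and XIRP1.

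**Figure D4:**
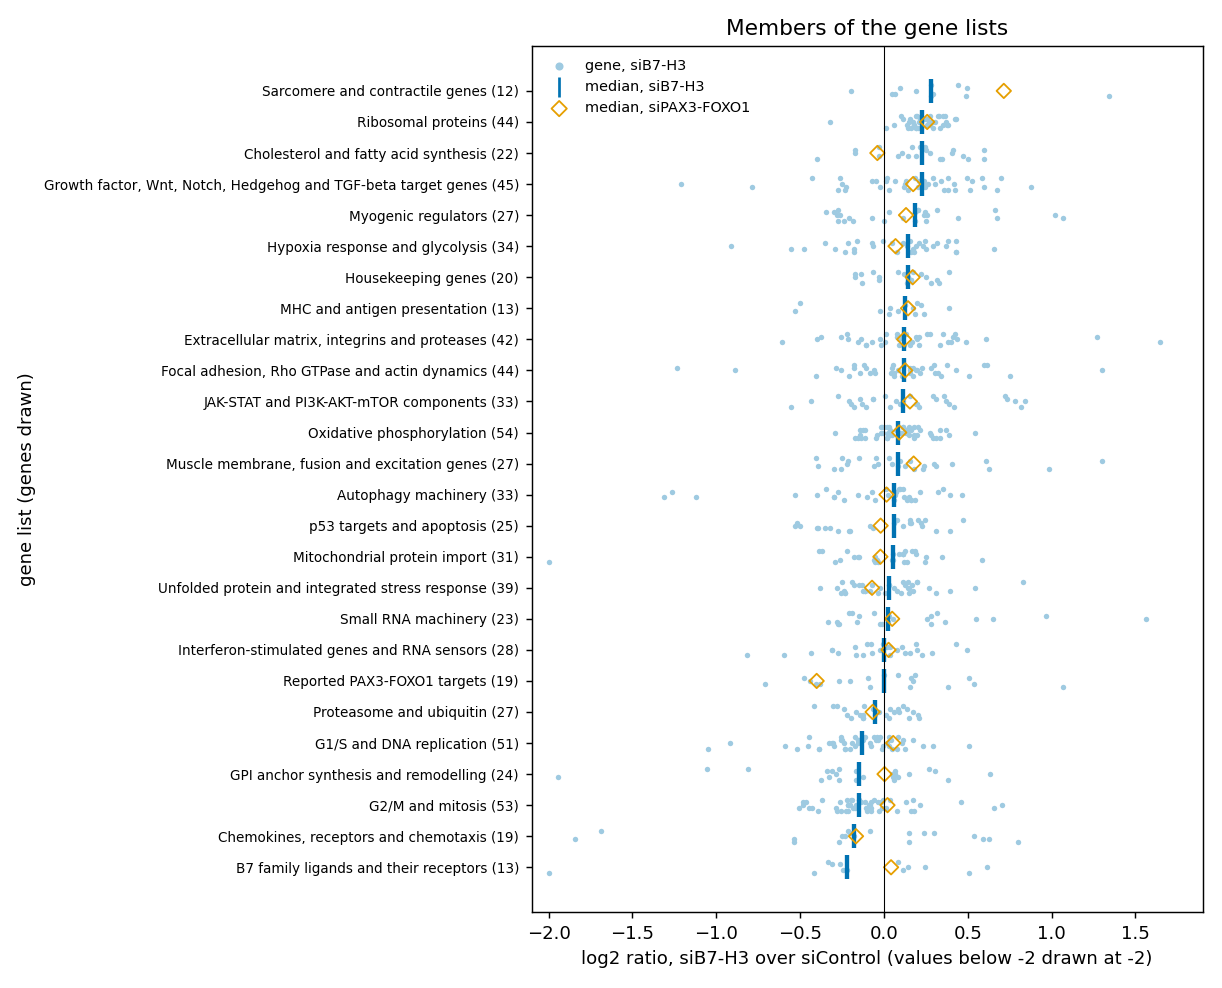
Log2 ratio of siB7-H3 over siControl for the members of each gene list except genes of other tissues, for members with 1 kept probe set or with all kept probe sets on the same side (points, number of genes in brackets), the list's median (bar) and the median of siPAX3-FOXO1 over siControl for the same genes (diamond); values under -2 are drawn at -2. Bars lie between -0.22 for the B7 family and 0.28 for sarcomere genes, and the diamonds of the sarcomere, cholesterol and PAX3-FOXO1 target lists lie farthest from their bars.

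CD276 was the one member of the B7 family and receptor list past 2-fold, out of 15 with a kept probe set. ICOSLG, the ligand of ICOS, was the other member past 1.5-fold, at 138 in siControl, 169 in siPAX3-FOXO1 and 212 in siB7-H3, and its log2 ratio of 0.62 was 0.09 with raised values. CD58 and CD47, ligands of CD2 and SIRPA, were among the brightest and had median log2 ratios of -0.42 and 0.11. CD274, which encodes PD-L1 and was named after its values were seen, read 304 in siControl, 318 in siPAX3-FOXO1 and 257 in siB7-H3. Antigen presentation genes had 10 above, 3 below and 9 on both sides of 22, with B2M, the light chain of MHC class I, at 25698 in siControl and 30954 in siB7-H3, and none past 1.5-fold.

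Above siControl lay 73.3% of sarcomere genes, 50% of myogenic regulators and 45.7% of muscle membrane genes, against 40.1% of all genes. Myogenic differentiation proceeds from MYOD1, which marks myoblasts, through MYOG, which starts terminal differentiation, to the proteins of the sarcomere. MYOG read 605 in siControl, 3386 in siPAX3-FOXO1 and 1269 in siB7-H3, a log2 ratio of 1.07 over siControl and -1.42 over siPAX3-FOXO1. MYOD1 read 11471, 8688 and 13046, the highest of the 3 with siB7-H3 but by a log2 ratio of 0.19 only. The MYOG value with siB7-H3 thus lay between the other arrays, while MYOD1 did not. MYOG and MYOD1 each rest on a single probe set, of the kind that can match several transcripts.

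Of 34 myogenic regulators with a kept probe set, 17 lay above siControl, 10 below and 7 on both sides, with a median of 0.19. That median was 0.07 with the genes on both sides counted in. Those past 1.5-fold were MYOG, TEAD1, a transcription factor of the Hippo pathway (3 probe sets, median 1.02), SIX4 (0.67) and HDAC5 (0.66), and none was 1.5-fold lower. Sarcomere genes had 11 above, 1 below and 3 on both sides among 15, with a median of 0.28 for siB7-H3 and 0.72 for siPAX3-FOXO1 over the same genes. With the 3 counted in, the siB7-H3 median was 0.19. ACTC1, cardiac actin, read 26987 in siControl, 38707 in siPAX3-FOXO1 and 32753 in siB7-H3. Its log2 ratio of 0.28 was near those of the similarly bright ACTB (0.28) and GAPDH (0.31), which are not sarcomere genes. TPM2, a tropomyosin, was the one below siControl, at -0.19. XIRP1 was the member past 1.5-fold, at 115, 378 and 293, with a log2 ratio of 0.55 by raised values. Its siControl value and those of many sarcomere genes were dim, as 42 of the 57 sarcomere genes on the array had no kept probe set. In the muscle membrane list CKB and DOK7, an adaptor of the neuromuscular junction (757, 1789 and 1497), were past 1.5-fold, and 16 of 35 lay above and 11 below.

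Reported targets of PAX3-FOXO1 showed no lean, with 10 above, 9 below and 6 on both sides of 25 and a median of 0.00, against -0.40 with siPAX3-FOXO1 for the same genes. The fusion transcript carries the 3' part of FOXO1. FOXO1 probe sets read 358 and 678 in siControl, 88.4 and 249 in siPAX3-FOXO1, and 373 and 650.0 in siB7-H3, so siB7-H3 stayed at the siControl level. PAX3 read 381 and 233 in siControl, 329 and 194 in siPAX3-FOXO1, and 398 and 154 in siB7-H3, with its probe sets on both sides. HMGA2, a chromatin architectural protein, was 1.5-fold lower, at 3390.1, 1551 and 2069.7, with its 8 other probe sets under the limit. SKP2, a ubiquitin ligase subunit, read 10478, 3942 and 7736 at the median.

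Genes of chemotaxis and migration were of interest because the study examined migration. CXCR4, the receptor of CXCL12, read 653, 759.6 and 947 in siControl, 427, 512 and 436 in siPAX3-FOXO1, and 542, 682 and 732 in siB7-H3. The siB7-H3 values lay between the other arrays at all 3 probe sets, with log2 ratios of -0.27, -0.15 and -0.37 over siControl, short of 1.5-fold. Of 22 chemokines, receptors and chemotaxis genes, 8 lay above, 11 below and 3 on both sides, with a median of -0.18, and 42 of the 64 on the array had no kept probe set. STYK1 and SPN, the sialoglycoprotein CD43 (285, 77.3 and 79.4), were 2-fold lower, both from values near the limit, and SPN was at -0.51 with raised values. A dim SPN probe set went the other way, from 62.2 in siControl to 131 in siB7-H3, and its other dim ones lay below siControl. CCL2, a monocyte chemokine (142, 493 and 214), ROBO1, a receptor of Slit ligands (2068, 3284 and 3190.2) and LSP1, an actin-binding protein (197, 344 and 343), were 1.5-fold higher, CCL2 by 0.10 only with raised values. MET, the receptor of hepatocyte growth factor, named after its values were seen, read 855 in siControl, 795 in siPAX3-FOXO1 and 1335 in siB7-H3 at the median of its 4 probe sets, with ratios from 0.17 to 0.70.

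Focal adhesion and actin genes had 30 above, 14 below and 26 on both sides of 70, and extracellular matrix genes 29, 13 and 16 of 58, both with a median of 0.12. ARPC1A, a subunit of the Arp2/3 complex that nucleates branched actin, was bright and low only with siB7-H3 among the 3 arrays, at 6761 in siControl, 7403 in siPAX3-FOXO1 and 3655 in siB7-H3. FRK, a Src-related kinase, was low on both knockdown arrays, at 442, 143 and 188. PXN, paxillin, was 1.5-fold higher, at 310.4, 503 and 476. In the matrix list EMP2 and ELN, elastin (122, 469 and 294, and 0.56 with raised values), were the members past 1.5-fold, and ITGB1, integrin beta 1, read 8085, 8526 and 6042 at the median, a log2 ratio of -0.37.

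Signalling lists had medians above 0 with both knockdowns. JAK-STAT and PI3K-AKT-mTOR components had 22 above, 11 below and 10 on both sides of 43, with a median of 0.11 for siB7-H3 and 0.16 for siPAX3-FOXO1 over the same genes. Past 1.5-fold were IL6ST, the shared gp130 receptor (4 probe sets, median 0.82), PDPK1, the kinase that activates AKT (4, 0.84), FOXO3, a transcription factor that AKT restrains (3, 0.78), IRS2, an insulin receptor substrate (2, 0.74), and INSR, the insulin receptor (1, 0.72). INSR read 135, 264 and 223, and raised values gave 0.15. FOXO3 had medians of 998 in siControl, 1820.2 in siPAX3-FOXO1 and 1844 in siB7-H3, and IL6ST 497, 864 and 828. IRS2 and PDPK1 were highest with siB7-H3, at 1245, 1711 and 2142 and at 546, 765 and 1212, whereas the 2 arrays of knockdown cells were near each other in FOXO3 and IL6ST.

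Target genes of growth factor, Wnt, Notch, Hedgehog and TGF-beta signalling had 34 above, 11 below and 9 on both sides of 54, which is 63.0% above, with medians of 0.23 and 0.17. Against the siPAX3-FOXO1 array the medians of these 2 lists were -0.01 and -0.05. The members past 1.5-fold higher were AXIN2, a Wnt feedback gene (235, 415 and 433), TGFB1 (152, 306 and 247, and 0.31 with raised values), SPRY4, an inhibitor of growth factor signalling (299, 250.0 and 477), DUSP5, a phosphatase of ERK (1314, 1463 and 1988), and BMP4 (326, 328 and 489.6). LEF1 was the member past 1.5-fold lower. In SPRY4, DUSP5 and BMP4 the siB7-H3 array was the one that was high, and in AXIN2 both knockdown arrays were.

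Proliferation genes leaned to the lower side by small amounts. Genes of the replication machinery are induced under E2F factors, CDK2 acts at the G1/S transition, and the mitotic genes peak later under FOXM1. Of 59 G1/S and DNA replication genes, 37 lay below siControl (62.7%), 14 above and 8 on both sides, with a median of -0.13 for siB7-H3 and 0.06 for siPAX3-FOXO1 over the same genes. Of 67 G2/M and mitosis genes, 42 lay below (62.7%), 11 above (16.4%) and 14 on both sides, with medians of -0.15 and 0.02. With the genes on both sides counted in, the siB7-H3 medians were smaller, at -0.079 for G1/S and -0.083 for G2/M. With quantile normalization 39 G1/S and 43 G2/M genes lay below, and with a smooth trend over level removed the counts were the same.

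CDK2, the kinase of the G1/S transition, was the member of these lists with the largest difference. Its median over both kept probe sets was 3074 in siControl, 3439.8 in siPAX3-FOXO1 and 1631 in siB7-H3, with log2 ratios of -1.44 and -0.65 that differed from each other. RPA2, a subunit of the single-stranded DNA-binding complex, read 4673, 3933 and 3099.5. CDK6, named after its values were seen, lay below siControl at all 7 kept probe sets, with log2 ratios from -1.13 to -0.57 and medians of 833, 720.1 and 389.6. PRC1, an organizer of the spindle midzone (5804, 9747 and 9138), and INCENP, a chromosomal passenger protein (375, 613 and 611), were 1.5-fold higher, against the lean of their list. CDK4, among the brightest G1/S genes, was also above siControl, at 35494, 46891 and 43552.

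Cholesterol and fatty acid synthesis genes lay mostly above siControl with siB7-H3. Of 29, 17 lay above (58.6%), 5 below (17.2%) and 7 on both sides, with a median of 0.23, against -0.04 for siPAX3-FOXO1 over the same genes. MSMO1, a methylsterol oxidase, read 2299 in siControl, 1403 in siPAX3-FOXO1 and 3473 in siB7-H3. STARD4, a cholesterol carrier, read 1596, 1923 and 2416. Both were past 1.5-fold, MSMO1 by 0.59 and STARD4 by 0.60. FDPS, IDI1 and DHCR7, enzymes of the pathway and among its brightest members, had log2 ratios of 0.25, 0.41 and 0.41. HMGCS1, the synthase that makes HMG-CoA, had medians of 1826, 1468 and 2598, whereas SREBF2, a factor that drives these genes, lay at -0.40, and both were named after their values were seen. The median of the list lay between 0.20 and 0.29 under all alternatives run, the siPAX3-FOXO1 reference included. It was 0.15 when the genes on both sides were counted in.

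The GPI anchor pathway, which builds the glycolipid that PIGU helps attach to proteins, had 13 below, 11 above and 7 on both sides of 31, with a median of -0.15 that became 0.05 when the genes on both sides were counted in. Beside PIGU, PIGQ, a subunit of the first enzyme (251, 237 and 121), was 2-fold lower, PGAP2 (232, 188 and 132.6) was 1.5-fold lower, though by -0.33 and -0.21 only with raised values, and PIGW, an inositol acyltransferase (1119, 1766 and 1733), was 1.5-fold higher. Mitochondrial import genes, the machinery of TOMM22, had 17 above, 14 below and 8 on both sides of 39, with a median of 0.05, and TOMM22 alone among them was past 1.5-fold. PIGU and TOMM22 thus lay far from most members of their lists, which follows in part from the choice, as both were picked for their large differences.

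Small RNA machinery had 12 above, 11 below and 9 on both sides of 32, with a median of 0.03. Beside AGO4, TNRC6C, a partner of Argonaute in silencing (349.8, 709 and 683), was 1.5-fold higher, while DROSHA and DICER1, the nucleases that make microRNAs, had log2 ratios of -0.21 and 0.03. Interferon-stimulated genes and RNA sensors had 14 above, 14 below and 10 on both sides of 38, with a median of 0.00. ISG15 read 2785 in siControl, 1968 in siPAX3-FOXO1 and 2062 in siB7-H3, and DDX60 was the member past 1.5-fold, on the lower side, at 780.5, 489.8 and 443.

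Stress genes were balanced. Unfolded protein and integrated stress response genes had 21 above, 18 below and 5 on both sides of 44, with a median of 0.03, and p53 targets and apoptosis genes had 13, 12 and 15 of 40, with a median of 0.06 and none past 1.5-fold. HMOX1, heme oxygenase 1, was 1.5-fold higher, at 785 in siControl, 1451 in siPAX3-FOXO1 and 1393 in siB7-H3. Among hypoxia and glycolysis genes, with 21 above, 13 below and 8 on both sides of 42, PLOD2, a collagen lysyl hydroxylase (972, 1007 and 524), was 1.5-fold lower and P4HA2, a subunit of prolyl hydroxylase (128.5, 361 and 203), was 1.5-fold higher, though at 0.02 with raised values. PLOD2 was low with siB7-H3 alone among the 3 arrays.

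Ribosomal protein genes had 43 above, 1 below and 8 on both sides of 52, with a median of 0.23 for siB7-H3 and 0.26 for siPAX3-FOXO1. RPL39, among the brightest, read 34069 in siControl, 42186 in siPAX3-FOXO1 and 43887 in siB7-H3. With a smooth trend over level removed, 42 lay above and 2 below, with a median of 0.16, whereas with quantile normalization 25 lay above and 12 below, with a median of 0.04. All probe sets at 8000 and above had a median of 0.09, and the 45 probe sets for transcripts added during labelling and hybridization had a median of 0.25, and their part in the ribosomal count was not tested. Housekeeping genes had 13 above, 7 below and 6 on both sides of 26, with a median of 0.14 that was 0.11 with the trend removed and 0.01 with quantile normalization. Oxidative phosphorylation had 39 above, 15 below and 11 on both sides of 65 with a median of 0.08, proteasome and ubiquitin genes had 12, 15 and 9 of 36 with a median of -0.06, and none of either was past 1.5-fold. Of 68 genes of other tissues on the array, 4 had a kept probe set, among them CYP3A4, a liver enzyme, at 137, 131 and 281, or 0.49 with raised values.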

How the data were processed

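RNA of Rh-30 cells transfected with siControl, siPAX3-FOXO1 or siB7-H3 was measured with the GeneChip Human Genome U133 Plus 2.0, on 1 array per group. The authors deposited linear intensities, 1 per probe set and array. Their software was Affymetrix Expression Console 1.4.1, and how probes were summarized is not given in the sources used here. Equal trimmed means show that the arrays had been scaled to each other, and a scaling hides any common shift. For the present text, log2 ratios of the deposited intensities were computed with no pseudocount. The platform annotation gave the names, and 41091 of 54675 probe sets had 1 gene, 1801 several and 11721 none, and 62 were controls. Genes with several kept probe sets are given by their median ratio and counted by the ratio closest to 0. Named genes were CD276, genes of the study, the 15 highest and 15 lowest genes with 2 or more kept probe sets, the 8 highest and 8 lowest with 1 (values under 200 raised to 200), list members past 1.5-fold and the brightest members of lists. The members and the 27 lists were chosen with earlier results of these data known. As no group had a second array, no test was made. Alternatives were other level limits, a floor, median centring, quantile normalization, a lowess trend (fraction 0.3), probe set rules and the siPAX3-FOXO1 array as reference. Python 3.11.15, numpy 2.4.6, pandas 2.3.3, statsmodels 0.14.6 and matplotlib 3.10.9 were used. The gene-level log2 ratios at the main setting were first checked on simulated arrays, and the lists and alternatives were not.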

Additional observations from a re-analysis of the deposited data

How the results depend on the processing

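The log2 ratio of CD276 lay between -3.69 and -1.62 under the alternatives run, but CD276 left the genes counted as 2-fold lower where both values had to reach 200 (as 1 probe set was left) and, with BECN1 and MRS2, where dim probe sets had to agree. No paired analysis was possible because each group had 1 array. Median centring, quantile normalization and removal of a trend over level left the counts of genes past 2-fold and 1.5-fold within 1.5 times those given, though with quantile normalization the ribosomal genes above siControl went from 43 to 25 and the housekeeping genes from 13 to 8. With a level limit of 100, single-probe-set genes 2-fold higher and lower numbered 102 and 102, and 337 and 366 at 1.5-fold. With a limit of 400, 25 of them were 2-fold higher. With both values at or over 200 they numbered 20 higher and 21 lower at 2-fold, and with values under 200 raised to 200, 21 and 18. Without probe sets that can match several transcripts, genes with 2 or more probe sets numbered 5 at 2-fold lower and 19 at 1.5-fold lower. Of the 11 genes named, BECN1, MIGA1, MRS2, PLEKHB2, STYK1, TMX1 and TOMM22 were lost and 4 remained. BECN1 and TOMM22 had no kept probe set left. The others were lost because a single kept probe set was left, still past 2-fold lower. Its log2 ratio was -1.18 in MIGA1, -1.36 in MRS2, -1.41 in PLEKHB2, -1.52 in STYK1 and -1.47 in TMX1. Where dim probe sets had to agree as well, 3 were 2-fold higher and 29 were 1.5-fold higher. Calls on the median of probe sets gave 22 and 28 genes 2-fold higher and lower and 101 and 97 at 1.5-fold, and calls on the brightest probe set gave 22, 26, 120 and 94.

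With the siPAX3-FOXO1 array as reference, 11 genes with 2 or more probe sets were 2-fold higher, and the log2 ratio of 26 named genes past 1.5-fold changed sign, as did those of some named genes short of it, CXCR4 (0.41) and FOXO1 (1.73) among them. Those now below the reference were CCL2 (-1.20), CKB (-1.35), DOK7 (-0.26), ELN (-0.66), EMP2 (-0.022), FOXO3 (-0.019), HIPK3 (-1.07), HMOX1 (-0.059), IL6ST (-0.068), INCENP (-0.0049), INSR (-0.25), LSP1 (-0.0055), MYOG (-1.42), P4HA2 (-0.83), PIGW (-0.027), PRC1 (-0.093), PXN (-0.082), ROBO1 (-0.042), RTF1 (-0.053), SCAMP1 (-0.14), TEAD1 (-0.15), TGFB1 (-0.31), TNRC6C (-0.054), TRIB2 (-0.42) and XIRP1 (-0.37), and HMGA2 (0.42) was now above it. The cause was not tested. The medians of the B7 family, G1/S, G2/M, cholesterol, matrix, antigen presentation and mitochondrial import lists kept their sign under all 11 alternatives, and the median of ribosomal genes, 0.23, was 0.16 with the trend removed, 0.04 with quantile normalization and -0.03 against siPAX3-FOXO1.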
